A study of Mus musculus with 21 samples.

Results

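A set of 235 DNase I hypersensitive sites was called in the innate lymphoid cell precursor (ILCP) and at neither of the earlier stages, and each of them overlapped a TCF1 binding peak of the stage before. DNase I hypersensitive sites (DHS) are stretches of open chromatin that the enzyme DNase I cuts readily. To find the members, DHS peaks of the 3 stages that overlapped by 1 bp or more were joined into 1 region, on chromosomes 1 to 19 and X. Regions with an ILCP peak and no peak of the other 2 stages were kept, and of these the ones that overlapped a TCF1 peak by at least 1 bp. This gave 235 of 17583 ILCP-only regions, out of 102313 merged regions in all. ILCP-only regions were 24.7% of the 71094 regions with an ILCP peak. The members were thus chosen by presence or absence in the 4 peak lists, that is by the peaks' measured signal, and that choice is described here without a test.

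ILCP was compared with 2 less advanced stages from the bone marrow of C57BL/6 mice: ALP, the all-lymphoid progenitor, and EILP, an early progenitor of innate lymphoid cells. DNase-seq was made from 3 libraries per stage, each of 300 cells cut with 0.3 units of DNase I for 5 minutes. TCF1 was mapped in EILP alone by CUT&RUN, in which an antibody brings a nuclease to the bound protein, with 500 cells per sample. There were 6 TCF1 samples and 4 IgG control samples, but some are labelled as technical repeats, and their titles give 4 library numbers for TCF1 and 3 for IgG. Another 2 CUT&RUN samples, repeats of 1 library number, were left in no group here, since their title names TCF1 and their description the IgG track. Cells of all 3 stages were sorted as Lin-, Kit+ and 2B4+. ALP lacked a4b7 and was Flt3high and IL-7Ra+, from mice labelled Tcf7EGFP/+. EILP and ILCP had a4b7 and were Tcf7+, and Thy1 told them apart. EILP was Thy1- and labelled Tcf7EGFPnull/+. ILCP was Thy1+ and IL-7Ra+, and labelled Tcf7EGFP/+. All 3 stages therefore carried a Tcf7 reporter allele, and that of EILP was labelled null. Stage and genotype cannot be told apart in any contrast with EILP, although the pooled tag file of each stage was named WT per the file headers.

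Innate lymphoid cells are lymphocytes that act without rearranged antigen receptors. Their progenitors switch on Tcf7, which encodes TCF1, an HMG-box factor that binds the minor groove of DNA and bends it, and mice without Tcf7 make few of these cells. TCF1 can bind sites in closed chromatin in T cells, and DHS away from promoters often mark enhancers. The members let TCF1 binding in EILP be set beside chromatin that was called open at the following stage.

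The authors called each list on 1 pooled tag file, which leaves 1 value per peak and no replicate error. For that reason no difference below has a test, and intervals are 95% intervals that cover counting only. The ALP, EILP and ILCP lists rested on 12420429, 11236009 and 12681410 tags after filtering, and the TCF1 list on 2418839 tags against 2919489 in its control. The height of a peak is the number of extended tags over its summit. The lowest called height was 5 tags in each DHS list and 3 tags in the TCF1 list. Absence of an EILP peak therefore means that the tags there did not pass the authors' threshold, not that there were none. Coordinates below are those of mm9. Genes and sequence at the members were not analysed here.

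The share of ILCP-only regions that met the TCF1 rule was 1.34% (95% Wilson interval 1.18 to 1.52). It was 4.16% over all merged regions. Among regions found in a single earlier stage it was 1.04% (0.861 to 1.26) for EILP only, 103 of 9871, and 0.750% (0.608 to 0.924) for ALP only, 87 of 11601. Regions called in ALP and EILP but not in ILCP stood at 1.83% (1.58 to 2.11), 178 of 9747, above the ILCP-only share. Regions called in EILP and ILCP but not in ALP stood at 5.05% (479 of 9480), and regions of all 3 stages at 7.82% (3117 of 39851). The members took 235 of the 6679 TCF1 peaks, or 3.52%, with exactly 1 TCF1 peak and 1 ILCP peak in each region.

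At the edge of the rule the members were few. The overlap was under 10 bp in 4 members and under 25 bp in 17. The smallest was 4 bp, at chromosome 4, 136391846 to 136391986. The TCF1 summit itself lay inside the region in 175 of 235 members (74.5%, 68.5 to 79.6). Just outside the rule, 11 ILCP-only regions ended within 10 bp of a TCF1 peak without overlapping it. The nearest, at chromosome 19, 46112024 to 46112183, abutted the TCF1 peak, which is counted as 1 bp. In 6 members the TCF1 peak was wide enough to reach another DHS region too. For 4 of these the other region was open in EILP, as at chromosome 6, 38617422 to 38617539, which lay 13 bp from an EILP peak. The TCF1 summit at that site lay inside the member, 3 bp from the ILCP summit. In the rest of these 4 the TCF1 summit lay outside the member. They were at chromosome 6, 144622466 to 144622659, chromosome 7, 52713141 to 52713303, and chromosome 17, 24824407 to 24824693. Which of the neighbouring DHS the TCF1 signal belongs to was not tested.

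The members were taller and wider ILCP sites than the remaining ILCP-only regions. Their ILCP height ran from 6 to 28 tags with a median of 12 (11 to 13), against a median of 9 tags (range 5 to 38) in the 17348 ILCP-only regions without TCF1. Of the members, 59 (25.1%, 20.0 to 31.0) had 16 tags or more, a height reached by 7.71% of all ILCP-only regions. The low end, 8 tags or fewer, held 42 members (17.9%) and 7505 of the regions without TCF1 (43.3%). Median width was 188 bp (178 to 203) in members and 151 bp in the rest. TCF1-bound regions of EILP and ILCP had medians of 17 ILCP tags and 291 bp, and those of all 3 stages 28 tags and 400 bp. In TCF1-bound regions of ALP and ILCP the medians were 12 tags and 210 bp.

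Fold enrichment, the authors' ratio of height plus 1 to local background plus 1, separated the groups far less. Its median was 5.41 (5.16 to 5.83) in members and 5.23 in ILCP-only regions without TCF1. A fold of 10 or more was found in 7 members (2.98%), against 1.74% of all ILCP-only regions. The local background, which enters the divisor of that ratio, also differed. Worked out from the deposited fold and height, it had a median of 1.21 tags (1.09 to 1.33) in members and 0.790 in the rest. The background lay at the floor of the ILCP list in 30 members (12.8%, 9.09 to 17.6) and in 6112 of the other regions (35.2%). The members thus stood in stretches with a higher ILCP local background. That background was taken from the ILCP tags over 10 kb, with no control, so a site's own tags can add to it. Height and background went together in members (Spearman rho 0.562). The part of the sites' own tags in the background was not tested.

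Height and surroundings each moved with TCF1 overlap among ILCP-only regions. The share with a TCF1 peak was 0.557% at a height of 5 to 8 tags, 1.19% at 9 to 11, 2.24% at 12 to 15 and 4.35% (3.39 to 5.57) at 16 to 38. In regions with a background above the median of 0.790 tags, the share went from 0.661% (15 of 2268) in the lowest height class to 4.63% (56 of 1209) in the highest. In regions at or below that background it went from 0.512% (27 of 5279) to 2.04% (3 of 147), the latter with an interval of 0.697 to 5.83. The intervals of the 2 background groups overlapped in every height class but that of 9 to 11 tags. There the shares were 0.536% (0.319 to 0.897) at or below the median background and 1.73% (1.33 to 2.25) above it. Width moved along too. The share was 0.447% (23 of 5147) in the narrowest of 5 width classes and 4.42% (43 of 972) in the widest, of 300 to 698 bp. A wide region meets a TCF1 peak more readily, and the part of width in the relation with height was not tested.

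**Figure D1:**
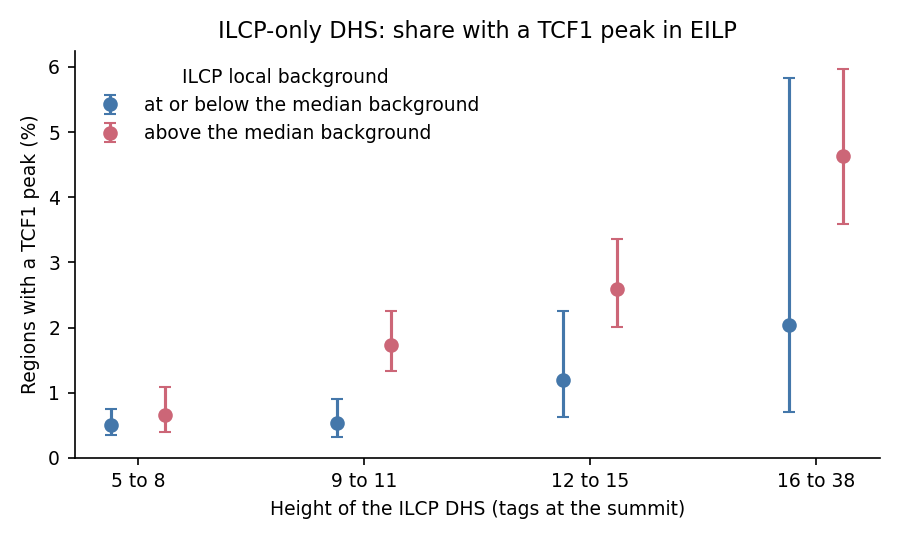
Share of ILCP-only DHS regions that overlap an EILP TCF1 peak (vertical axis, percent) by height class of the ILCP DHS in tags (horizontal axis), split at the median ILCP local background. Points are shares and bars 95% Wilson intervals; above the median background the share goes from 0.661% to 4.63%, while the classes at or below it have wide intervals at the top, where 3 of 147 regions carried a peak.

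The single-stage DHS of the earlier stages were looked at in the same way. The regions of each stage's list were split into 5 classes of equal size by fold enrichment. Of the weakest class, 86 of 7688 ILCP-only regions (1.12%, 0.907 to 1.38) held a TCF1 peak, and of the next to strongest 26 of 1225 (2.12%, 1.45 to 3.09). The 2nd and 3rd classes held 60 of 5432 (1.11%) and 59 of 3055 (1.93%). For EILP-only regions the counts from the weakest class up were 64 of 5334, 22 of 3110 (0.707%), 15 of 1081 (1.39%, 0.843 to 2.28) and 2 of 329 (0.608%, 0.167 to 2.19), which follow no single direction. For ALP-only regions they were 49 of 5696 (0.860%), 24 of 3551 (0.676%), 10 of 1707 (0.586%) and 4 of 544 (0.735%, 0.286 to 1.88). The strongest class had 4 of 183 ILCP-only regions, 0 of 17 EILP-only and 0 of 103 ALP-only regions, where a count of 0, taken as at most 3 counts of the total, allows shares of up to 17.6% and 2.91%. Width rose with fold in each list, from a median of 122 to 282 bp in ILCP-only regions. Whether the shares change with fold differently between stages was not tested.

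The 15 members with the highest ILCP fold enrichment stood mostly on a low background, below the members' median of 1.21 tags in 12 of 15, which a ratio to background favours. The first was at chromosome 3, 30509934 to 30510282, with 24 ILCP tags and a fold of 12.4. Its TCF1 peak had 6 tags, and the nearest EILP peak was 7934 bp away. Next came chromosome 17, 26048868 to 26049090, with 21 tags, a fold of 11.6 and a TCF1 peak of 5 tags whose summit lay 21 bp from the DHS summit. Neither of these sites had an EILP peak within 1000 bp, nor did any other of the 15. The site at chromosome 11, 78579982 to 78580260, had 19 tags and a fold of 11.3, over a TCF1 peak of 3 tags, the lowest called height. At chromosome 4, 139091085 to 139091367, 18 tags and a fold of 11.2 stood with no other DHS of any stage within 10 kb, and the TCF1 summit was 8 bp away. A neighbouring pair of members on chromosome 2 lay 17648 bp apart, and the stronger of them, 30956415 to 30956722, had 19 tags and a fold of 10.2.

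The next 4 had low TCF1 peaks. They were at chromosome 8, 81649153 to 81649557 (fold 10.2), chromosome 9, 120110625 to 120110951 (10.0), chromosome 17, 4604470 to 4604909 (9.80), and chromosome 15, 85749554 to 85749980 (9.57). Their TCF1 peaks had 4, 3, 3 and 4 tags. Further down came chromosome 17, 80900470 to 80900780 (fold 9.14), chromosome 8, 122997718 to 122998116 (9.09), chromosome 5, 139576916 to 139577285 (8.91), and chromosome 6, 144868063 to 144868661 (8.87). The last of these was the tallest member, with 28 ILCP tags, and the widest, at 599 bp. The group closed with chromosome 11, 29697186 to 29697393 (fold 8.67), and chromosome 19, 47898235 to 47898664 (8.63). Of all 15, the site at chromosome 8, 122997718 to 122998116, was the 1 that also ranked among the 10 with the highest TCF1 fold. TCF1 heights in the 15 ran from 3 to 8 tags.

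TCF1 peaks at the members were low. The height ran from 3 to 10 tags with a median of 5, and 166 of 235 (70.6%, 64.5 to 76.1) had 5 tags or fewer. In TCF1-bound regions called in EILP and ILCP, 56.2% (51.7 to 60.5) had 5 tags or fewer, and in those of all 3 stages 39.4% (37.7 to 41.2). TCF1 peaks outside every DHS were lower again, with 86.8% (85.3 to 88.1). At the other end, 9 members (3.83%, 2.03 to 7.12) had 8 tags or more, against 28.7% of the bound regions of all 3 stages and 1.35% of the peaks outside DHS. The remaining patterns of stages also had low TCF1 peaks. Heights of 5 tags or fewer were found in 75.7% (66.6 to 83.0) of EILP-only, 83.9% (74.8 to 90.2) of ALP-only, 75.8% (69.1 to 81.5) of ALP and EILP and 61.0% (48.3 to 72.4) of ALP and ILCP regions, each interval overlapping that of the members. Low TCF1 peaks were thus found in each of these patterns and not in the members alone. The authors' fold enrichment for TCF1 differed little, with a median of 5.15 (4.81 to 5.15) in members, 5.30 in regions of all 3 stages and 4.43 outside DHS. This fold rests on the same height and is no separate measure of TCF1 strength. A higher local background also lowers it. The upper quartile of that background was 0.414 tags in regions of all 3 stages and 0.166 in members.

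The order was less clear among sites of like ILCP height. At 5 to 8 ILCP tags, the share of TCF1 peaks with 5 tags or fewer was 78.6% in 42 members, 59.1% in 22 regions of EILP and ILCP and 75.4% in 61 regions of all 3 stages. At 9 to 11 ILCP tags, it was 51 of 68 members, 76.1% (64.7 to 84.7) in the regions of EILP and ILCP and 69.9% (61.7 to 76.9) in the regions of all 3 stages. At 12 to 15 tags the shares were 69.7%, 69.3% and 63.8%. Intervals overlapped in these 3 classes. At 16 tags or more the shares were 61.0% (48.3 to 72.4) in 59 members, 46.7% (41.0 to 52.5) in the EILP and ILCP regions and 34.4% (32.6 to 36.3) in the regions of all 3 stages. There the members' interval overlapped that of the EILP and ILCP regions and lay above that of the regions of all 3 stages. That top class has no upper bound, and the lasting DHS in it were taller.

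**Figure D2:**
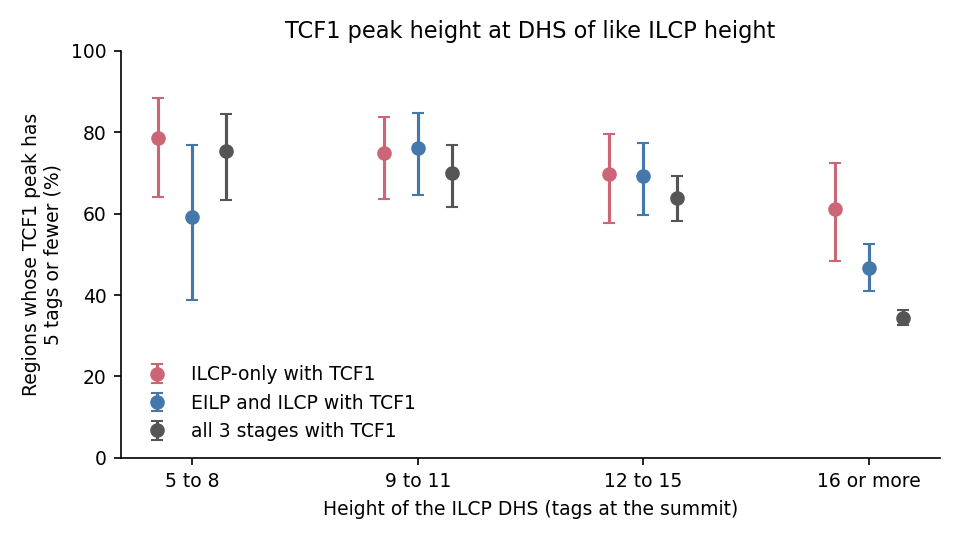
Share of TCF1-bound regions whose TCF1 peak has 5 tags or fewer (vertical axis, percent) by height class of the ILCP DHS in tags (horizontal axis), for members, for regions called in EILP and ILCP and for regions called in all 3 stages. Points are shares and bars 95% Wilson intervals; the intervals of the 3 groups overlap up to 15 tags, and at 16 tags or more the regions of all 3 stages, at 34.4%, lie below the members, at 61.0%, whose interval overlaps that of the EILP and ILCP regions.

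The 10 members with the highest TCF1 fold enrichment had ILCP heights of 8 to 23 tags. The strongest TCF1 peak of the set, 10 tags and a fold of 9.18, lay at chromosome 6, 35203120 to 35203240. Its summit was 4 bp from the ILCP summit, and the ILCP site had 13 tags on a background of 2.26. An EILP peak of 27 tags lay 348 bp away, so this site sat beside chromatin already open in EILP. At chromosome 8, 129376114 to 129376295, a TCF1 peak of 9 tags (fold 8.64) met an ILCP site of 23 tags, with 3 other TCF1 peaks within 10 kb. The site at chromosome 1, 157654091 to 157654480, also had 9 TCF1 tags (fold 8.46) but an ILCP height of 9. By contrast, chromosome 10, 83360442 to 83360564, with 8 TCF1 tags (fold 7.97), had no other DHS within 10 kb and its nearest EILP peak at 12895 bp. It was the most isolated of the 10.

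Equal TCF1 folds of 7.72 were found at chromosome 8, 122932540 to 122932639, and chromosome 16, 64873190 to 64873339, with 8 tags each. The former was 65079 bp from another of the 10, chromosome 8, 122997718 to 122998116, which had a TCF1 fold of 7.21, as did chromosome 14, 68526876 to 68527168. The list ended with a TCF1 fold of 7.08 at chromosome 11, 118885258 to 118885380, and at chromosome 2, 33777932 to 33778161. Across the 235 members ILCP height and TCF1 height were nearly unrelated, with a Pearson r of 0.142 and a Spearman rho of 0.104. For the 2 fold enrichments r was -0.06 and rho -0.03. The members share the same pooled libraries, and TCF1 heights of 3 to 10 tags leave little room for an order.

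**Figure D3:**
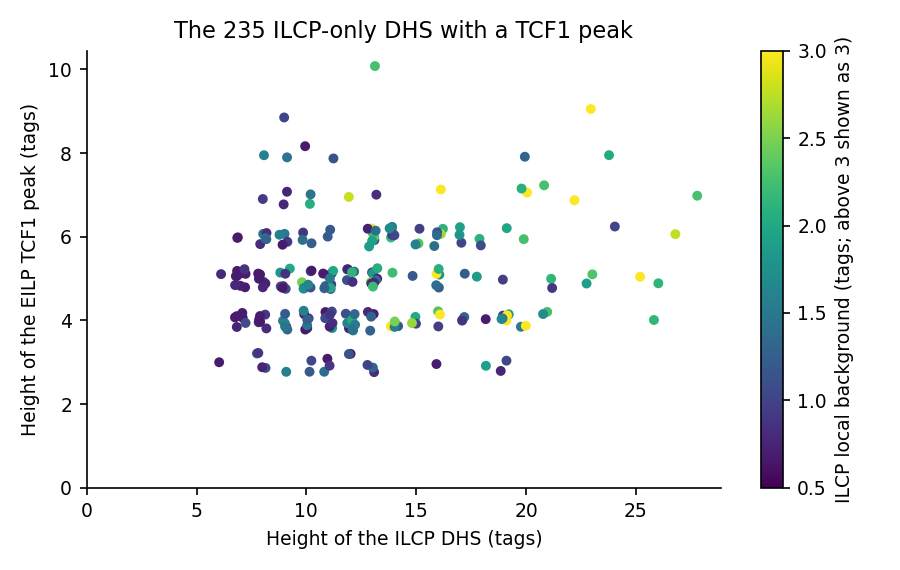
Height of the EILP TCF1 peak in tags (vertical axis) against height of the ILCP DHS in tags (horizontal axis) for the 235 members, each a point moved by up to 0.25 tags in both directions to show overlapping values, coloured by ILCP local background. TCF1 heights stay between 3 and 10 tags at every ILCP height, and the tall ILCP sites are mostly those with a high background.

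TCF1 and the later DHS were centred on nearly the same place. The median gap between the TCF1 and the ILCP summit was 53 bp (43 to 64) in members, 55 bp in bound regions of EILP and ILCP and 56 bp in bound regions of all 3 stages. It was within 50 bp in 112 members (47.7%, 41.4 to 54.0) and within 100 bp in 175 (74.5%). Among bound regions of all 3 stages these shares were 45.4% and 69.7%. The overlap rule holds the summits close in narrow regions, so the values describe the members and are no test of alignment. The TCF1 summit fell on the lower-coordinate side in 125 members and on the higher side in 108.

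A view that does not use the overlap rule counted every TCF1 summit around the summits of all ILCP-only regions. Within 100 bp there were 181, or 10.3 per 1000 regions (95% Poisson interval 8.85 to 11.9). Between 500 and 1000 bp there were 2.61 (2.28 to 2.97) per 1000 regions for each 100 bp of distance, and between 1000 and 2000 bp 1.55 (1.37 to 1.75). TCF1 summits in EILP were thus denser at the place where ILCP had its DHS than beside it. The same held for the other single-stage DHS. Within 100 bp the density was 7.80 (6.16 to 9.75) per 1000 for EILP-only and 6.38 (5.01 to 8.01) for ALP-only regions, with 2.53 and 2.69 between 500 and 1000 bp. The interval of the ILCP-only regions overlapped that of the EILP-only regions and lay above that of the ALP-only regions. Regions called in EILP and ILCP had 35.4 (31.7 to 39.4) per 1000 within 100 bp.

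**Figure D4:**
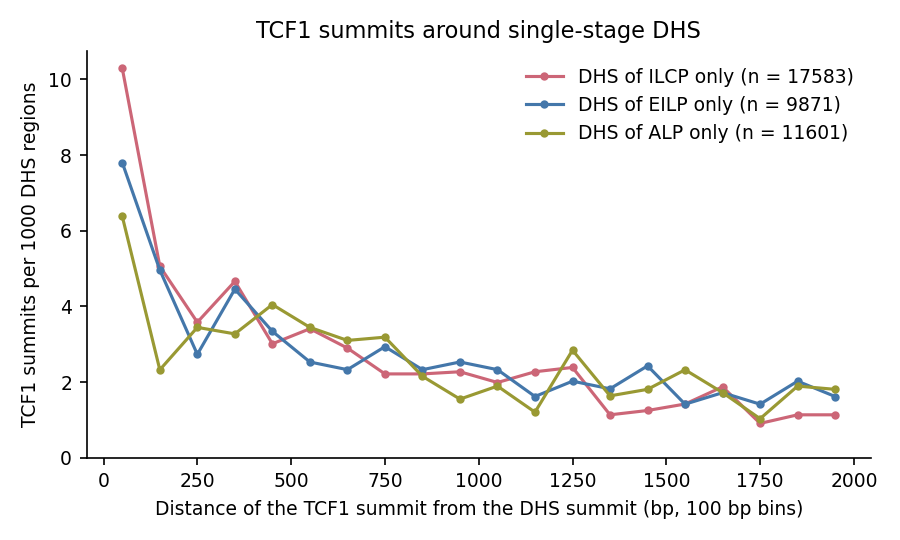
Number of EILP TCF1 summits per 1000 DHS regions (vertical axis) by distance from the DHS summit in bins of 100 bp (horizontal axis, bp), for regions called in ILCP only, EILP only and ALP only. Each line is highest in the first bin, at 10.3, 7.80 and 6.38 per 1000 regions.

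The members lay closer to chromatin open in EILP than the rest of the ILCP-only regions did. The median distance to the nearest EILP peak was 2579 bp (1880 to 3199) in members and 6067 bp in regions without TCF1. An EILP peak lay within 1000 bp of 80 members (34.0%, 28.3 to 40.3), against 20.2% of all ILCP-only regions, and within 200 bp of 26. For ALP peaks the medians were 2412 and 6629 bp. A DHS of all 3 stages was found within 10 kb of 166 members (70.6%, 64.5 to 76.1), against 46.5% of all ILCP-only regions. No other DHS of any stage lay within 10 kb of 25 members (10.6%), against 23.5%.

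**Figure D5:**
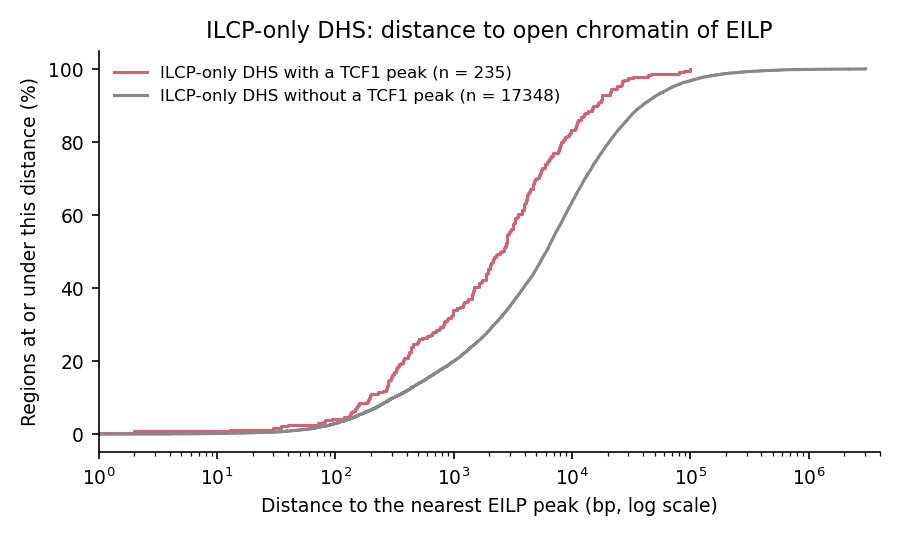
Cumulative share of ILCP-only DHS regions (vertical axis, percent) by distance to the nearest EILP peak (horizontal axis, bp, log scale), for the 235 regions with a TCF1 peak and the 17348 without. The line of members runs to the left of the other, with medians of 2579 and 6067 bp.

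This nearness moved with the local background. Among regions with a background of 0.678 to 0.79 tags, members had a median distance of 10836 bp and the others 11974 bp. In the class from 0.79 to 1.1 tags the medians were 4673 and 4276 bp, from 1.1 to 1.6 tags 1028 and 1573 bp, and above that 766 and 838 bp. The order of the medians was not the same in every class. Within these classes the medians of members and other ILCP-only regions were much closer to each other than over all regions. In members, local background itself fell with distance to an EILP peak, with a Spearman rho of -0.639. A split by background is thus partly a split by distance. It cannot tell whether background accounts for the nearness. By height, the members were nearer in each class, with 6057 against 8334 bp at 5 to 8 tags and 1730 against 3207 bp at 16 to 38 tags.

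Other TCF1 peaks lay near a larger share of the members than of all ILCP-only regions. Another TCF1 peak, besides the one that defines the member, lay within 10 kb of 66 members (28.1%, 22.7 to 34.2), against 11.5% of all ILCP-only regions. The DHS region holding the nearest EILP peak carried TCF1 in 38 members (16.2%), against 4.83%. In 4 of the 38, the member's own TCF1 peak reached a region with an EILP peak. Another ILCP-only region lay within 10 kb of 80 members (34.0%, 28.3 to 40.3), against 27.3%. The part of the members' higher local background in these shares was not tested.

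The 5 members closest to an EILP peak lay 1 to 35 bp from it, where 1 bp means that they abut. They lay at chromosome 3, 115407453 to 115407646 (1 bp), chromosome 2, 156267541 to 156267706 (2 bp), chromosome 6, 38617422 to 38617539 (13 bp), chromosome 12, 55288842 to 55288982 (30 bp), and chromosome 13, 104804492 to 104804695 (35 bp). Their ILCP heights were 8 to 11 tags and those of the EILP neighbours 8 to 20 tags. The EILP neighbour was the higher of the pair in 3 of 5. The 5 farthest were chromosome 12, 119333517 to 119333716 (99859 bp), chromosome 2, 5108308 to 5108407 (88887 bp), chromosome 10, 6482608 to 6482975 (80043 bp), chromosome 11, 113284609 to 113284821 (46801 bp), and chromosome 2, 4638447 to 4638604 (43726 bp). Their ILCP heights were 6 to 14 tags and their TCF1 heights 3 to 6. Members farther than 50 kb from EILP open chromatin numbered 3 of 235, against 1310 of 17348 of the regions without TCF1.

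The members were spread over all 20 chromosomes. Chromosome 11 had the most, with 21 members among 1105 ILCP-only regions (1.90%, 1.25 to 2.89), and X the fewest, with 1 of 368 (0.272%, 0.0480 to 1.52). Chromosomes 5 and 7 had 19 each, with shares of 1.87% and 1.86%, and chromosome 1 had 8 of 1264 (0.633%, 0.321 to 1.24). The interval of each chromosome other than 1 held the share over all, 1.34%. Of the windows of 1 Mb that held any member, 189 held 1, 17 held 2 and 4 held 3. The windows with 2 or more held 46 members. Whether members cluster more or less than ILCP-only regions at large was not tested. The windows with 3 members began at 33000001 on chromosome 2, 38000001 on chromosome 6, 134000001 on chromosome 7 and 122000001 on chromosome 8, and held 18 to 32 ILCP-only regions each. The windows with 2 members lay on chromosomes 1, 2, 5, 6, 7, 8, 11, 14, 15, 16, 17 and 19. No 2 members were within 10 kb of each other, and the closest pair, on chromosome 5 at 36705723 to 36705973 and 36716886 to 36717044, was 10913 bp apart.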

How the data were processed

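The 4 deposited peak lists cover ALP, EILP and ILCP DNase-seq and EILP TCF1 CUT&RUN. Per the file headers, the authors called each with MACS version 2.1.1.20160309 on 1 pooled tag file. Tags of 50 bp were extended to 100 bp, no more than 1 was kept per position, and the q cutoff was 0.05. DNase tags were shifted by 50 bp, with no control and a background window of 10 kb. TCF1 was called against a pooled control named IgG, with windows of 1 and 10 kb. Per the file headers, that control includes the library number of the 2 samples whose titles name TCF1 but which stand in no group, so if these hold TCF1 signal, TCF1 folds are lowered and peaks may be missed. Per the submitters' processing notes, coordinates are on mm9. The aligner is not given in the sources used here.

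Height is the deposited pileup signal, strength the authors' fold enrichment (a ratio of height plus 1 to background plus 1), and thresholds used the deposited −log10 of the q-value. The background was worked out from that ratio. Distances run between region edges, and abutting regions count as 1 bp apart. Shares have 95% Wilson intervals, medians exact binomial intervals and densities exact Poisson intervals. Regions on chromosomes other than 1 to 19 and X were left out. The functions were tested on simulated lists.

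The members and lists were chosen with earlier results of these data known, and the classes of height, width, background and distance after the values were seen. Named regions are the 15 members with the highest ILCP fold, the 10 with the highest TCF1 fold, the 5 nearest to and 5 farthest from an EILP peak, and 1 Mb windows with 2 or more members. Others named at the edge of the rule were chosen after their values were seen. Annotation, nearby genes and motifs were planned for an mm9 reference and were not run. Tables used pandas 2.3.3 and scipy 1.17.1.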

Additional observations from a re-analysis of the deposited data

How the results depend on the processing

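No paired analysis was possible because each list pools its libraries, so no library could be left out either. Of 33 alternative values, 25 stayed close to the main value. Close meant within 1.5 times for the number of members, and within the main 95% interval for medians and their ratios. A change of direction was defined for the ratios of median strength alone, and none of these changed direction. The number of members moved from 235 to 127 with a TCF1 q under 0.001 and to 147 with no ALP or EILP peak within 1000 bp. Over the other settings it was 168 to 234, including 229 without the TCF1 peaks that reach another DHS region, a setting chosen after seeing the data. The ratio of median ILCP strength, members to other ILCP-only regions, was 1.03 by fold enrichment, 1.33 by height and 1.23 by −log10 q. The ratio of median TCF1 strength, members to bound regions of all 3 stages, was 0.972 by fold enrichment, 0.833 by height and 0.977 by −log10 q. With the TCF1 summit inside the region, the median summit distance was 38 bp in place of 53. With no ALP or EILP peak within 500 bp, the median distance to an EILP peak was 4034 bp, against 7938 bp in the other regions, which the setting itself lengthens. The alternatives for annotation, genes and motifs were not run. TCF1 heights of 3 to 10 tags limit any order among members.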

Other observations

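DHS regions called in ALP and again in ILCP but not in EILP form a small class that also holds TCF1 peaks of EILP. There were 59 among 4180 regions (1.41%, 1.10 to 1.82), near the 1.34% of the ILCP-only regions. Their ILCP height had a median of 12 tags (10 to 13) and their TCF1 height a median of 5 (4 to 6), the same medians as in the 235 members. The median gap between the TCF1 and ILCP summits was 53 bp (34 to 85) in this class too. Whether these regions were below the threshold in EILP or had lost their openness there was not tested.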
